A study of Mus musculus with 36 samples.

Results

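The genes described here make up the route by which a cell shows peptides from its own proteins on MHC class I molecules. They are 10 genes, taken by symbol from the 55421 genes of the count table: the class I heavy chains H2-K1 and H2-D1, their light chain B2m, the peptide transporter subunits Tap1 and Tap2, the loading chaperone Tapbp, the inducible proteasome subunits Psmb8, Psmb9 and Psmb10, and the class I transactivator Nlrc5. All 10 were found and all 10 were among the 19478 genes that passed the low-count filter. The samples were hippocampal slices from wild-type (WT) C57BL/6 mice and from T41B mice (Thy1-hAPPLond/Swe, line 41), an amyloid model in which the Thy1 promoter drives human APP with the London and Swedish mutations, mainly in neurons. The mice were given vehicle or BD10-2, a small molecule made as a ligand of neurotrophin receptors, by gavage for 3 months and were 16 months old at the end, and slices of the right hippocampus were then stimulated with theta bursts or kept for the same time without them (sham). Stimulation was given 3 times, each with 10 bursts 200 ms apart and 4 pulses at 100 Hz in a burst, and slices were frozen directly afterwards, so every group shares the slicing and the time in the recording chamber.

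In the class I pathway, the proteasome cuts cytosolic proteins to peptides, the Tap1 and Tap2 transporter carries them into the endoplasmic reticulum, and tapasin (Tapbp) helps fit them into a heavy chain paired with beta-2 microglobulin (B2m). Interferons raise the whole set: they exchange the catalytic proteasome subunits for Psmb8, Psmb9 and Psmb10, and they induce Nlrc5, a nuclear protein that binds no DNA itself but is recruited by RFX and CREB family factors to class I promoters. In the brain, microglia and endothelial cells are the best known sources of class I, and neurons also carry it, where it has been tied to the pruning and plasticity of synapses.

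The upstream sequences of the heavy chains and of B2m are shown because they carry the best studied elements of class I control. RefSeq promoter entries (GRCm38.p6) were at hand for 8 of the 10 members, and the 250 bases before the annotated start were searched on both strands. H2-K1 (chr17:34000348-34000597, minus strand) and B2m (chr2:122147437-122147686, plus strand) are printed 5′ to 3′, the former from the first of its 2 RefSeq starts. Capitals mark, in H2-K1, a kB element (GGGGATTCC), the core of the class I interferon-stimulated response element or ISRE (GAANNGAAA, read here on the other strand) and a TGACG box, the half-site of CREB family factors; in B2m they mark a classical ISRE (GAAA, any 2 bases, GAAA) and a TGACG box. The motifs were chosen with these sequences in view.
H2-K1: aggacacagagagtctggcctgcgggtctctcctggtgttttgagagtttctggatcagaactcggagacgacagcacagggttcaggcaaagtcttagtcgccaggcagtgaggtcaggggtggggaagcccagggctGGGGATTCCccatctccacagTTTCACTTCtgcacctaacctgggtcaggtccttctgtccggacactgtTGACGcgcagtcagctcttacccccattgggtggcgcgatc
B2m: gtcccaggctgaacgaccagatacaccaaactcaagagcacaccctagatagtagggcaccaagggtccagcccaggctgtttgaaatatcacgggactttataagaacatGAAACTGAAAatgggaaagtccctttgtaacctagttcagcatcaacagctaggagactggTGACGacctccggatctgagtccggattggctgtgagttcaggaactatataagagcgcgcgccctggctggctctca
In H2-K1 the kB element began 111 bases, the ISRE core 90 bases and the TGACG box 41 bases before the start. The B2m ISRE began 139 bases and its TGACG box 78 bases before the start. For H2-D1 a stretch of 30 bases around its ISRE core (chr17:35262929-35262958, plus strand) is set under the same stretch of H2-K1 (chr17:34000423-34000452, minus strand), with the core in capitals.
H2-K1 site: tccccatctccacagTTTCACTTCtgcacc
H2-D1 site: tccccatctcctcagTTTCACTTCtgcacc
These 2 stretches were alike at 29 of 30 positions, and the longest run that both upstream sequences shared was 47 bases. A match to the kB letters occurred in 2 of the 8 members (H2-K1 and H2-D1) and in 0.213% of 32851 promoter entries. The ISRE core occurred in the same 2 members and in 6.31% of entries, and the classical ISRE in 1 (B2m) and in 2.98%. TGACG was found in 5 members (H2-K1, H2-D1, B2m, Tap1 and Psmb9) and in 17.8% of entries, and CCAAT, the box bound by NF-Y, in 6 members and in 33.8%. The windows of Tap1 and Psmb9 overlap, and each of these matches is 1 site that both windows hold. None of the printed matches overlap each other. These are matches of letters and not measured sites.

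Of the 10 genes, 7 lie within chromosome 17 between positions 33915899 and 35267499 (GRCm38), the MHC region. The RefSeq starts of Tap1 and Psmb9 are 226 bases apart on opposite strands, so both read away from a shared interval, and the TGACG site they share (positions 34187470 to 34187474) begins 86 bases before the Tap1 start and 144 bases before the Psmb9 start. B2m lies on chromosome 2, and Psmb10 and Nlrc5 on chromosome 8. The heavy chains belong to a large family of near-identical genes whose shared reads are divided by estimate, so their separate values are uncertain. Tap1 and Psmb9 overlap on opposite strands in the gene models, and the strand setting of the counting was not given in the sources used here.

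The table held 36 libraries with 11597555 to 28125842 counts (median 18082415). Libraries of the same mouse and the same stimulation (4 pairs) were added, which left 32 samples from 18 mice: 4 in each vehicle group, 3 in each WT BD10-2 group and 5 in each T41B BD10-2 group. Replicates are mice. Values are CPM, counts scaled to a common library size with TMM factors, and the test was edgeR's quasi-likelihood test with Benjamini-Hochberg adjustment over all genes tested; "called" means an adjusted p under 0.05. Thy1, whose sequences the transgene carries, was at 253.0 to 403.0 CPM in the 16 WT libraries and at 917.0 to 2500.0 CPM in the 20 T41B libraries, and the sum of 6 hippocampal neuron markers was between 1170 and 1910 CPM in all samples. The lowest T41B Thy1 value came from 1 of the 2 libraries labelled as the stimulated T41B BD10-2 slice of Mouse1592. Its partner had 1940 CPM. In that library Nlrc5 was at 9.99 against 30.7 CPM in its partner, Tap1 at 13.6 against 40.5 CPM and H2-K1 at 60.0 against 138.0 CPM. Whether it matches its label is therefore in doubt, and the reason for its values was not tested. Its Thy1 level was still above every WT library and near the 1080 and 1020 CPM of the T41B BD10-2 sham libraries of Mouse1557. The doubt rests in part on the members' own values, so results without this library are no independent check. Counts of the 10 genes that include it are given with and without it. For the other gene and marker lists, leaving it out, an alternative chosen after seeing the data, gave the same number of calls in each direction in the 2 comparisons tested, T41B BD10-2 stimulation and genotype in BD10-2 stimulated slices, except that 2 astrocyte markers in place of 1 were called higher after stimulation.

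Per kilobase of exon, B2m had the highest level of the 10 in each of the 8 groups, from a mean of 42.4 CPM per kb in WT vehicle sham slices to 246.0 CPM per kb in T41B BD10-2 stimulated slices. In WT vehicle sham slices H2-D1 (14.2 CPM per kb) and H2-K1 (8.49 CPM per kb) came next, then Tapbp (6.17) and Psmb10 (6.06), Tap2 (2.34), Tap1 (0.88), Psmb8 (0.676), Nlrc5 (0.301) and Psmb9 (0.179). In T41B BD10-2 stimulated slices Tap1 stood at 16.3 CPM per kb, above Psmb10 (11.8), and Nlrc5 at 9.2 CPM per kb. The plot of CPM by group shows all samples.

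**Figure D1:**
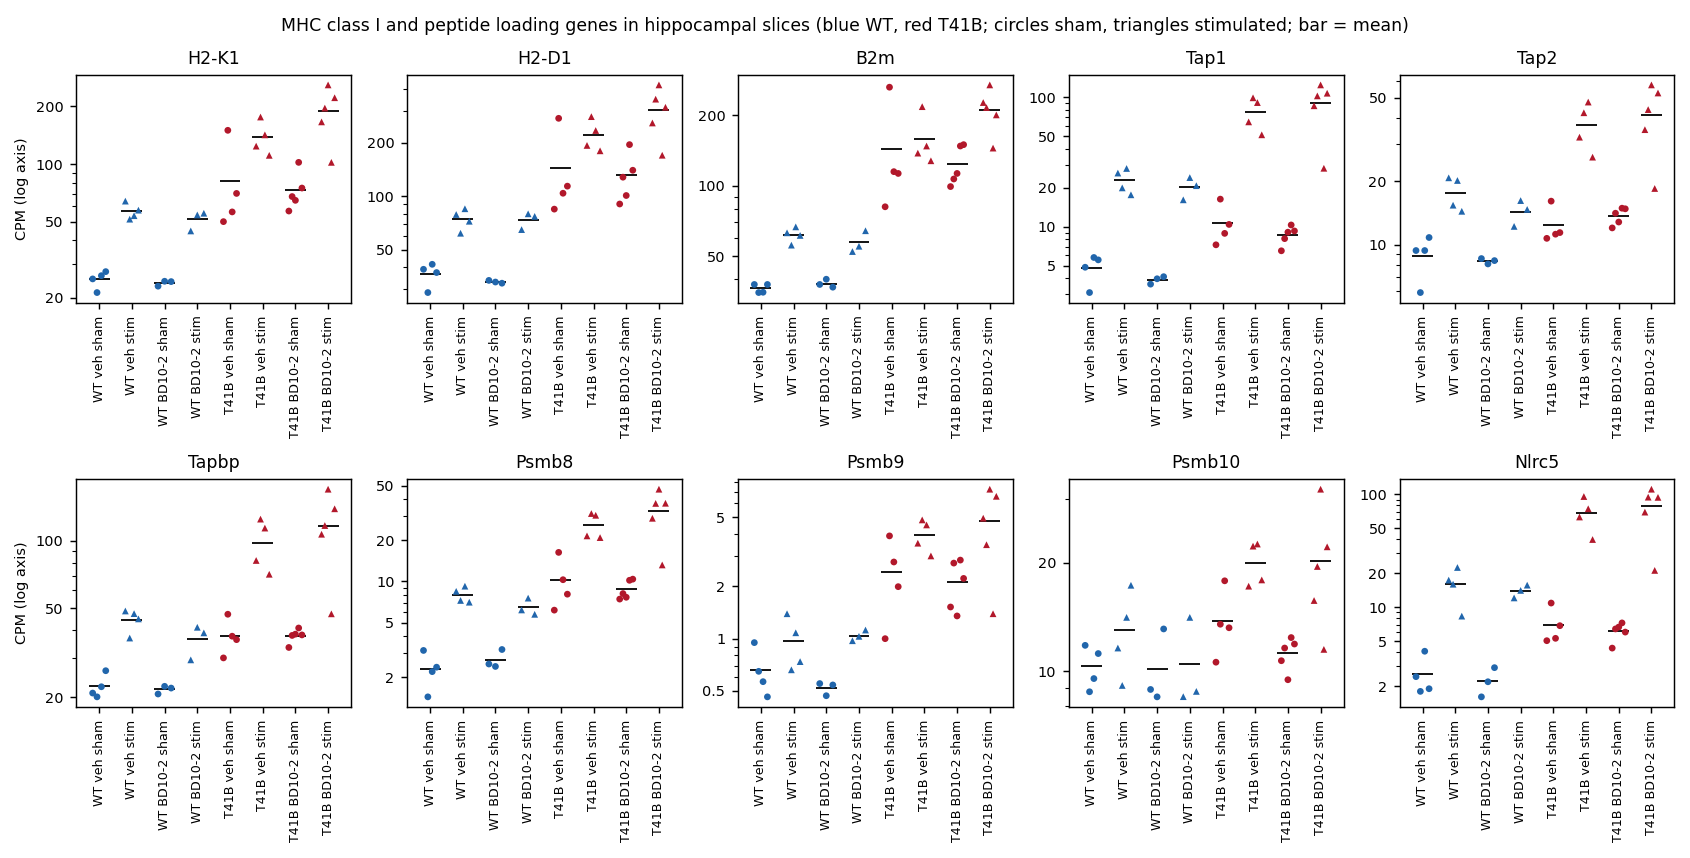
CPM of each of the 10 genes (log axis, 1 panel per gene) in the 8 groups, 1 point per sample, with circles for sham and triangles for stimulated slices, blue for WT and red for T41B, and a bar at the mean. Most panels show steps from WT sham to T41B stimulated slices, with B2m running from 35.0 to 270.0 CPM, while Psmb10 moves least.

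Theta-burst stimulation was followed by higher class I pathway RNA in both genotypes and under both treatments, and the steepest rises were those of Nlrc5 and Tap1. Of the 10 genes, 8 rose in WT vehicle slices, 5 in WT BD10-2 slices, 6 in T41B vehicle slices and 10 in T41B BD10-2 slices, and no gene of the set fell. Over all genes tested, the share called higher was 8.21%, 6.29%, 11.7% and 13.3% in the same order. The median log2 fold change of the 10 genes was 1.02, 1.04, 1.05 and 1.48, beside -0.01, -0.01, -0.05 and -0.04 for all genes tested. In bulk tissue a change in the number of cells of a type and a change in RNA per cell cannot be told apart.

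Nlrc5, the transactivator, had the largest fold change of the 10 in each of the 4 combinations. In WT vehicle slices its CPM was 2.43, 1.8, 4.08 and 1.9 after sham and 17.4, 16.0, 22.5 and 8.35 after stimulation. In T41B vehicle slices it was 5.06, 10.9, 5.31 and 6.87 after sham and 63.0, 95.6, 74.5 and 39.8 after stimulation. Stimulated and sham values did not overlap in either genotype, and the lowest stimulated T41B value was above every stimulated WT value. Under BD10-2 the WT values were 1.61, 2.19 and 2.92 CPM after sham and 12.1, 14.1 and 15.7 CPM after stimulation. The T41B values under BD10-2 were 4.35, 6.43, 6.68, 7.27 and 6.03 CPM after sham and 69.6, 94.4, 111.0, 21.2 and 94.0 CPM after stimulation, where 21.2 CPM belongs to Mouse1592. These groups were apart as well. The log2 fold change of Nlrc5 was 2.66 ± 0.41 (SE; edgeR adjusted p = 3.05e-05) in WT vehicle, 2.69 ± 0.46 (adjusted p = 0.000189) in WT BD10-2, 3.27 ± 0.37 (adjusted p = 1.29e-07) in T41B vehicle and 3.68 ± 0.34 (adjusted p = 1.31e-09) in T41B BD10-2 slices. On the linear scale these were 6.3-fold, 6.47-fold, 9.64-fold and 12.8-fold.

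Tap1, the transporter subunit, followed Nlrc5 closely. Its CPM in WT vehicle slices was 4.86, 3.1, 5.78 and 5.54 after sham and 25.9, 19.9, 28.1 and 17.6 after stimulation. In T41B vehicle slices it was 7.24, 16.3, 8.87 and 10.4 after sham and 64.3, 98.6, 90.6 and 51.1 after stimulation. The stimulated slices were above the sham slices without overlap in both. In T41B BD10-2 slices Tap1 ranged from 6.51 to 10.3 CPM after sham and stood at 85.6, 102.0, 124.0, 28.2 and 107.0 CPM after stimulation, again without overlap. Tap1 rose 4.72-fold in WT vehicle, 5.25-fold in WT BD10-2, 7.08-fold in T41B vehicle and 10.4-fold in T41B BD10-2 slices, with edgeR adjusted p between 4.84e-05 and 2.41e-10. Its partner Tap2 moved less: it rose 1.99-fold, 3.01-fold and 3.03-fold in WT vehicle, T41B vehicle and T41B BD10-2 slices, and its 1.72-fold difference in WT BD10-2 slices was not called (edgeR adjusted p = 0.0736). Tapbp, the loading chaperone, behaved like Tap2, with 1.98-fold, 2.59-fold and 3.08-fold rises and an uncalled 1.68-fold difference in WT BD10-2 slices (edgeR adjusted p = 0.0717).

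The class I molecule itself rose by less than Nlrc5 and Tap1. H2-K1 was at 25.1, 21.3, 26.1 and 27.4 CPM in WT vehicle sham slices and at 64.0, 51.5, 53.7 and 57.4 CPM in stimulated ones, which were apart. In T41B vehicle slices it was at 50.0, 150.0, 56.2 and 70.2 CPM after sham and at 124.0, 176.0, 142.0 and 111.0 CPM after stimulation. Here the groups overlapped through the sham slice of Mouse1551, at 150.0 CPM, and in T41B BD10-2 slices they met at 102.0 CPM, the highest sham slice (Mouse1564) and the lowest stimulated one (Mouse1592). H2-K1 rose 2.27-fold in WT vehicle (log2 1.18 ± 0.26 SE, edgeR adjusted p = 0.0023), 2.15-fold in WT BD10-2, 1.69-fold in T41B vehicle (edgeR adjusted p = 0.0294) and 2.58-fold in T41B BD10-2 slices. H2-D1 rose 2.04-fold, 2.24-fold and 2.32-fold in WT vehicle, WT BD10-2 and T41B BD10-2 slices, and its 1.53-fold difference in T41B vehicle slices was not called (edgeR adjusted p = 0.104). B2m, the shared light chain, went from a mean of 36.5 to 61.8 CPM in WT vehicle slices (edgeR adjusted p = 0.0306) and from 124.0 to 212.0 CPM in T41B BD10-2 slices (edgeR adjusted p = 0.00567). In WT BD10-2 slices its means were 38.2 and 57.3 CPM, a difference that was not called (edgeR adjusted p = 0.188). Its T41B vehicle means were 143.0 and 158.0 CPM, with a log2 difference of 0.14 whose 95% interval ran from -0.3 to 0.59.

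The 3 inducible proteasome subunits did not move alike. Psmb8 was at 3.14, 1.44, 2.2 and 2.37 CPM in WT vehicle sham slices and at 8.47, 7.27, 9.24 and 7.06 CPM in stimulated ones. T41B vehicle slices had 6.18, 16.3, 10.3 and 8.08 CPM after sham and 21.5, 31.3, 30.4 and 20.9 CPM after stimulation. Sham and stimulated values were apart in both, and Psmb8 rose in all 4 combinations, by 3.47-fold, 2.45-fold, 2.54-fold and 3.72-fold in the order WT vehicle, WT BD10-2, T41B vehicle and T41B BD10-2. Psmb9 was the least abundant member, between 0.462 and 7.24 CPM, and was called in T41B BD10-2 slices (2.23-fold, edgeR adjusted p = 0.0101) and in no other combination. Psmb10 was likewise called in T41B BD10-2 slices, at 1.78-fold (edgeR adjusted p = 0.00326). Its log2 difference in WT BD10-2 slices was 0.06, with a 95% interval from -0.46 to 0.58. Without the doubted library of Mouse1592, all 10 genes were still called in T41B BD10-2 slices, with Nlrc5 at a log2 fold change of 3.72, Tap1 at 3.42 and B2m at 0.83.

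Some calls depended on single mice. In WT vehicle slices 6 genes were called whichever mouse was left out, each time without H2-D1 and B2m, while the calls over all genes went from 2397 to between 1233 and 1717. In T41B vehicle slices H2-K1 was not called without Mouse1510, Mouse1553 or Mouse1579 (5 genes), and H2-D1 was called without Mouse1551 (7 genes). In WT BD10-2 slices, the smallest groups, 3 genes were called without Mouse1590 (Tap1, Psmb8 and Nlrc5) and 2 without Mouse1565, Mouse1571 or Mouse1586 (Tap1 and Nlrc5), while a fit of those 2 groups alone called 8. Over all genes the calls went from 1727 to between 761 and 1222 on leaving out 1 mouse of the WT BD10-2 comparison, and from 4197 to between 2652 and 3655 in T41B vehicle slices.

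**Figure D2:**
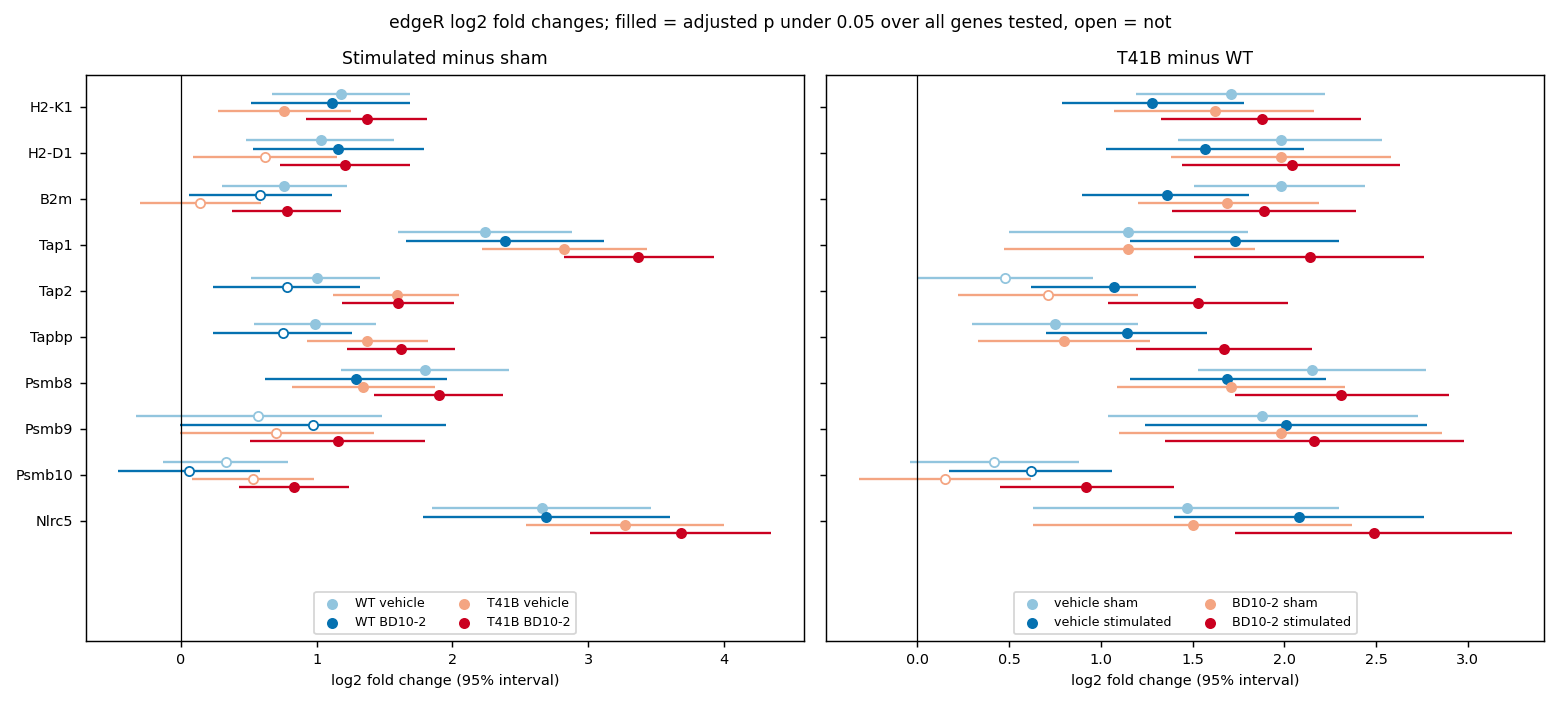
Log2 fold change of each gene with its 95% interval, stimulated minus sham on the left and T41B minus WT on the right, with 1 colour for each of the 4 comparisons in a panel. Filled points passed an edgeR adjusted p of 0.05 over all genes tested and open points did not; on the left Nlrc5 (2.66 to 3.68) and Tap1 (2.24 to 3.37) lie farthest from 0.

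Because 14 mice gave both a sham and a stimulated slice, and both slices of a mouse shared a batch, the change could also be read within each mouse. For the counts that follow, the share of all genes with the same pattern is not given here, so they lack a background. H2-K1, H2-D1, Tap1, Tap2, Tapbp, Psmb8 and Nlrc5 were higher in the stimulated slice of 14 of 14 mice. Psmb9 was higher in 13, B2m in 12 and Psmb10 in 11, and 1 exception for each was Mouse1592. With the doubted library of that mouse left out, an alternative chosen after seeing the data, the counts were 13 for Psmb9, 13 for B2m, 12 for Psmb10 and 14 for the other 7 genes. Within-mouse differences used CPM + 0.5 in both slices, which shrinks those at low CPM most. The within-mouse log2 difference of Nlrc5 ran from 1.88 to 2.84 in WT vehicle mice and from 2.45 to 3.69 in T41B vehicle mice. For B2m in T41B vehicle mice it ran from -0.28 to 0.76, and the mouse with the negative value was Mouse1551, whose sham slice was the highest of its group (264.0 CPM, against 218.0 CPM in its stimulated slice).

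With the mouse as a block among mice with both slices, edgeR called 8, 4, 8 and 9 of the 10 genes in WT vehicle, WT BD10-2, T41B vehicle and T41B BD10-2. Only 2 WT BD10-2 mice had both slices, against 4 mice in each other combination. Over all genes the calls in either direction went from 2397, 1727, 4197 and 4453 to 3906, 1283, 5737 and 4660. In T41B vehicle slices H2-D1 (log2 0.76, adjusted p = 0.005) and Psmb10 (log2 0.54, adjusted p = 0.0204) were called with the block. Psmb8 in WT BD10-2 slices (adjusted p = 0.0558) and Psmb9 in T41B BD10-2 slices (adjusted p = 0.102) were not.

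**Figure D3:**
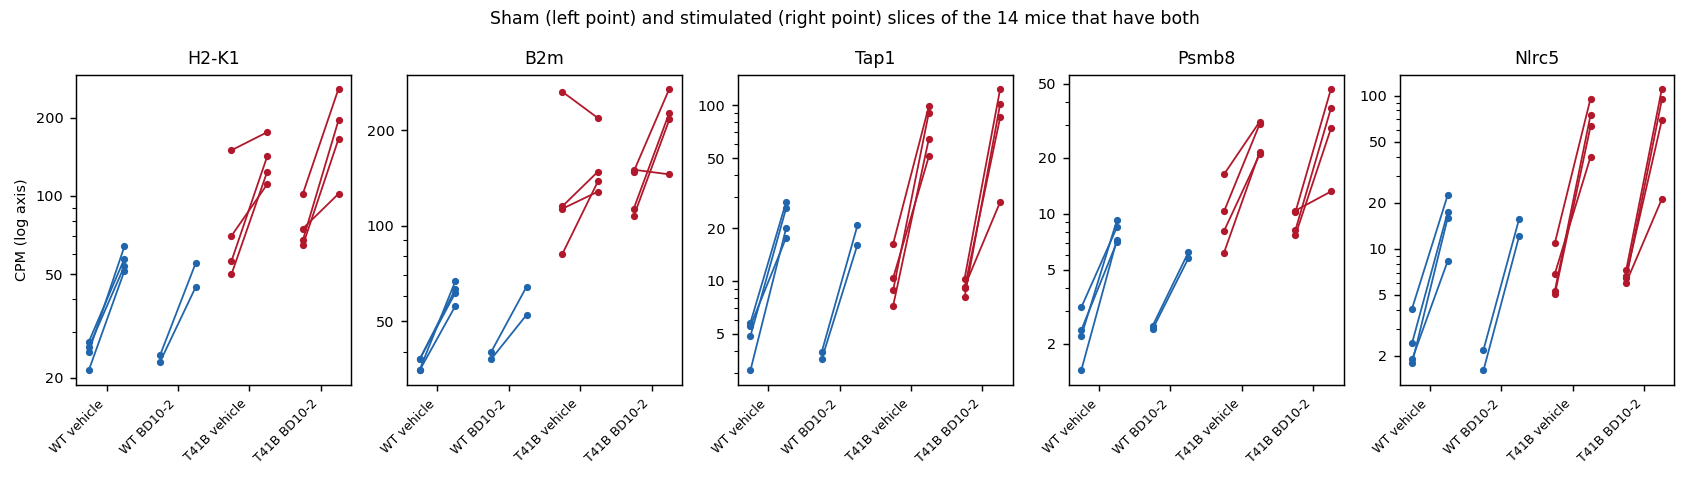
CPM (log axis) of 5 genes in the sham slice (left point) and the stimulated slice (right point) of the 14 mice with both, joined by a line, blue for WT and red for T41B. Each line of H2-K1, Tap1, Psmb8 and Nlrc5 climbs; for B2m 12 of 14 do.

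T41B slices held more class I pathway RNA than WT slices, before and after stimulation. Called higher in T41B were 8 of the 10 genes in vehicle sham, 9 in vehicle stimulated, 8 in BD10-2 sham and 10 in BD10-2 stimulated slices, and none was called lower. The share of all genes tested that was called higher was 5.0%, 4.74%, 4.31% and 8.19% in that order. The median log2 fold change of the 10 genes was 1.59, 1.46, 1.56 and 1.96, beside 0.0, -0.03, 0.01 and -0.02 for all genes tested. These comparisons use the same samples as the stimulation comparisons, so these counts and the earlier ones are not separate evidence.

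The heavy chains, B2m, Psmb8 and Psmb9 differed most in sham slices. In vehicle sham slices B2m was at 37.9, 35.0, 35.1 and 37.9 CPM in WT and at 81.4, 264.0, 115.0 and 113.0 CPM in T41B mice, with no overlap. H2-D1 was at 38.9, 28.8, 41.5 and 37.3 CPM in WT and at 84.7, 274.0, 104.0 and 114.0 CPM in T41B mice, also apart. Both were 3.94-fold higher in T41B (H2-D1 log2 1.98 ± 0.28 SE, edgeR adjusted p = 2.67e-05; B2m log2 1.98 ± 0.24 SE, edgeR adjusted p = 1.89e-06). H2-K1 was 3.27-fold, Psmb8 4.43-fold and Psmb9 3.69-fold higher. Tap1 (2.22-fold, edgeR adjusted p = 0.0341), Nlrc5 (2.76-fold, edgeR adjusted p = 0.0353) and Tapbp (1.68-fold, edgeR adjusted p = 0.0462) passed with less room. Tap2 (log2 0.48, 95% interval -0.00 to 0.96) and Psmb10 (log2 0.42, 95% interval -0.04 to 0.88) were not called.

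In BD10-2 sham slices the values of the same genes were close to these, with H2-D1 at 3.96-fold, B2m at 3.24-fold, H2-K1 at 3.07-fold, Psmb8 at 3.27-fold and Psmb9 at 3.94-fold. Tap2 was again not called (edgeR adjusted p = 0.1). In vehicle stimulated slices Tap1 was 3.32-fold, Tap2 2.1-fold, Tapbp 2.2-fold and Nlrc5 4.22-fold higher in T41B (edgeR adjusted p = 0.000229, 0.00329, 0.00125 and 0.000217). Psmb10 was called higher in BD10-2 stimulated slices alone among the 4 (1.9-fold, edgeR adjusted p = 0.0107), where its groups still overlapped. Without the doubted library of Mouse1592 all 10 were still called in BD10-2 stimulated slices, with H2-K1 at a log2 difference of 1.94 and Nlrc5 at 2.53.

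The sham counts rested on few mice. In vehicle sham slices 5 genes were called without Mouse1509, Mouse1513 or Mouse1553 (H2-K1, H2-D1, B2m, Psmb8 and Psmb9), and 4 without Mouse1551 (those but Psmb9). In BD10-2 sham slices 5 were called without Mouse1563, Mouse1564, Mouse1570, Mouse1571 or Mouse1590, and 4 without Mouse1565. Over all genes the calls in vehicle sham slices went from 1215 to 607, 794, 710 and 556 without Mouse1509, Mouse1513, Mouse1553 and Mouse1551, and in BD10-2 sham slices from 1062 to between 497 (without Mouse1590) and 1081 (without Mouse1563) over the 6 mice named. With the batch of the labels as a term, 4, 6, 5 and 10 genes were called in vehicle sham, vehicle stimulated, BD10-2 sham and BD10-2 stimulated slices, while over all genes the calls in either direction went from 1215, 1128, 1062 and 2056 to 352, 764, 842 and 1779. H2-D1, B2m and Psmb8 were called in all 4, and Nlrc5 in vehicle sham slices was not (log2 1.19, adjusted p = 0.297), nor was Tap1 (log2 0.74, adjusted p = 0.507). Within the batches that held both genotypes (A, C, D and I), T41B was higher in 7 of 7 values for 9 of the genes and in 6 of 7 for Psmb10. On the log2 scale of CPM + 0.5 they ran from 0.93 to 2.06 for H2-K1 and from 0.28 to 2.73 for Nlrc5. The 7 values are not independent, since sham and stimulated slices of the same mice gave some of them. Most set 1 mouse against 1 mouse. The share of all genes with 7 of 7 is not given here.

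The order of the groups differed between members. For B2m every T41B sham value (81.4 to 264.0 CPM) was above every WT stimulated value (52.4 to 66.8 CPM). For Tap1 nearly the opposite held, since T41B sham slices (6.51 to 16.3 CPM) lay below WT stimulated slices (16.1 to 28.1 CPM) apart from the sham slice of Mouse1551. H2-K1 (50.0 to 150.0 against 44.7 to 64.0 CPM) and Nlrc5 (4.35 to 10.9 against 8.35 to 22.5 CPM) overlapped between these groups. In the vehicle slices the log2 stimulation difference in WT and the log2 genotype difference in sham slices were 0.76 and 1.98 for B2m, 1.03 and 1.98 for H2-D1, 1.8 and 2.15 for Psmb8, 2.24 and 1.15 for Tap1, and 2.66 and 1.47 for Nlrc5. Both differences use the same WT sham slices.

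BD10-2 and vehicle slices were compared within each genotype and stimulation. No gene of the 10 was called in any of the 4 comparisons by edgeR, none by DESeq2, and none had an unadjusted p under 0.05 with edgeR; the share of all genes called higher was 0.0% in each of the 4, where 374, 1093, 431 and 759 genes had an unadjusted p under 0.05 (WT sham, WT stimulated, T41B sham, T41B stimulated). In T41B stimulated slices all 10 differences were at or above 0, with H2-K1 at log2 0.45 (95% interval -0.01 to 0.92), B2m at 0.42 (-0.00 to 0.84) and Nlrc5 at 0.19 (-0.42 to 0.8). In T41B sham slices H2-K1 differed by -0.16 (-0.62 to 0.31) and Nlrc5 by -0.22 (-0.93 to 0.49), with 1 of 10 differences above 0. That direction rested on Mouse1551: without it 8 of 10 were above 0, with H2-K1 at 0.32 and Nlrc5 at 0.08, and 0 were called. Without the doubted library of Mouse1592, 0 of 10 were called in T41B stimulated slices and 3 had an unadjusted p under 0.05 (H2-K1 at 0.51, H2-D1 at 0.51 and B2m at 0.48, edgeR adjusted p = 0.92, 0.948 and 0.92). Such unadjusted p numbered 6 without Mouse1592 and 3 without Mouse1551, again with 0 called. The intervals leave room for changes of either sign in most genes, so equal levels were not shown. Each batch of the labels held 1 treatment, so the treatment and the batch cannot be told apart.

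The difference between stimulation responses was tested directly. Under vehicle, the response in T41B minus that in WT was called for 0 of the 10 genes by edgeR and by DESeq2, and 0 had an unadjusted p under 0.05, with 0.0% of all genes called higher. Nlrc5 differed by log2 0.61 (95% interval -0.47 to 1.69), Tap1 by 0.58 (-0.28 to 1.44) and B2m by -0.62 (-1.26 to 0.02). Under BD10-2 all 10 differences were positive, 0 were called by either tool and 4 had an unadjusted edgeR p under 0.05 (Tap1, Tap2, Tapbp and Psmb10), with 0.0% of all genes called higher. Tapbp differed by log2 0.87 ± 0.33 (SE; edgeR adjusted p = 0.88), and without Mouse1592 it was the 1 of the 10 called, where 78 of all genes were called in either direction. The response of T41B slices under BD10-2 minus that under vehicle was called for 0 genes by either tool, with 1 unadjusted p under 0.05 (B2m, log2 0.64, 95% interval 0.04 to 1.23; 5 genes without Mouse1592 and 0 without Mouse1551, none called) and again 0.0% of all genes called higher. Over all genes, 1683, 846 and 526 had an unadjusted p under 0.05 in these 3 tests.

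The immunoproteasome replaces 3 constitutive subunits one for one, so the ratio of each inducible subunit to the one it replaces was computed per sample. Each ratio took CPM + 0.5 of both subunits and was not corrected for transcript length, so it is no share of molecules. Psmb8 stood at 6.24% to 9.03% of Psmb5 in WT vehicle sham slices and at 12.6% to 24.7% in stimulated ones. T41B vehicle slices had 18.5% to 37.7% after sham and 50.1% to 88.2% after stimulation, and in T41B BD10-2 stimulated slices it reached 127.0% in 1 slice. Sham and stimulated groups, and WT and T41B groups, were apart in all 8 comparisons of this ratio. On the log2 scale the stimulated minus sham difference was 1.55 in WT vehicle and 1.56 in T41B vehicle, and the T41B minus WT difference was 1.7 in vehicle sham slices (exact two-sided permutation p = 0.0286 each, the smallest that 4 against 4 allows, and 0.0571 after Benjamini-Hochberg adjustment over 24 tests). Psmb9 was at 2.52% to 3.94% of Psmb6 in WT vehicle sham and at 1.93% to 4.61% in stimulated slices, which overlapped. In T41B vehicle sham slices it was at 4.26% to 9.66%, apart from WT vehicle sham slices. Psmb9 itself was at 0.462 to 0.948 CPM in WT vehicle sham slices. The added 0.5 CPM therefore raises its percentages and narrows the gaps between groups. Psmb10 was at 18.3% to 27.8% of Psmb7 in WT vehicle sham slices and at 24.5% to 32.8% in T41B ones, which overlapped, and at 35.8% to 47.0% in T41B vehicle stimulated slices. No ratio passed 0.05 after adjustment, with 13 of 24 unadjusted exact permutation p under 0.05; without Mouse1592, 14 of 24 passed, each with an adjusted p of 0.049, and without its doubted library alone 0 of 24 passed. The stimulation tests of the ratios treated sham and stimulated slices of a mouse as independent. A sign-flip test within mice passed 0 of them, and with so few mice it could not reach 0.05. Of the constitutive subunits, Psmb6 was called in T41B BD10-2 slices after stimulation (log2 0.46 ± 0.13 SE, edgeR adjusted p = 0.00814) and between genotypes in BD10-2 stimulated slices. Psmb5 and Psmb7 were called in none of the 8 stimulation and genotype comparisons.

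**Figure D4:**
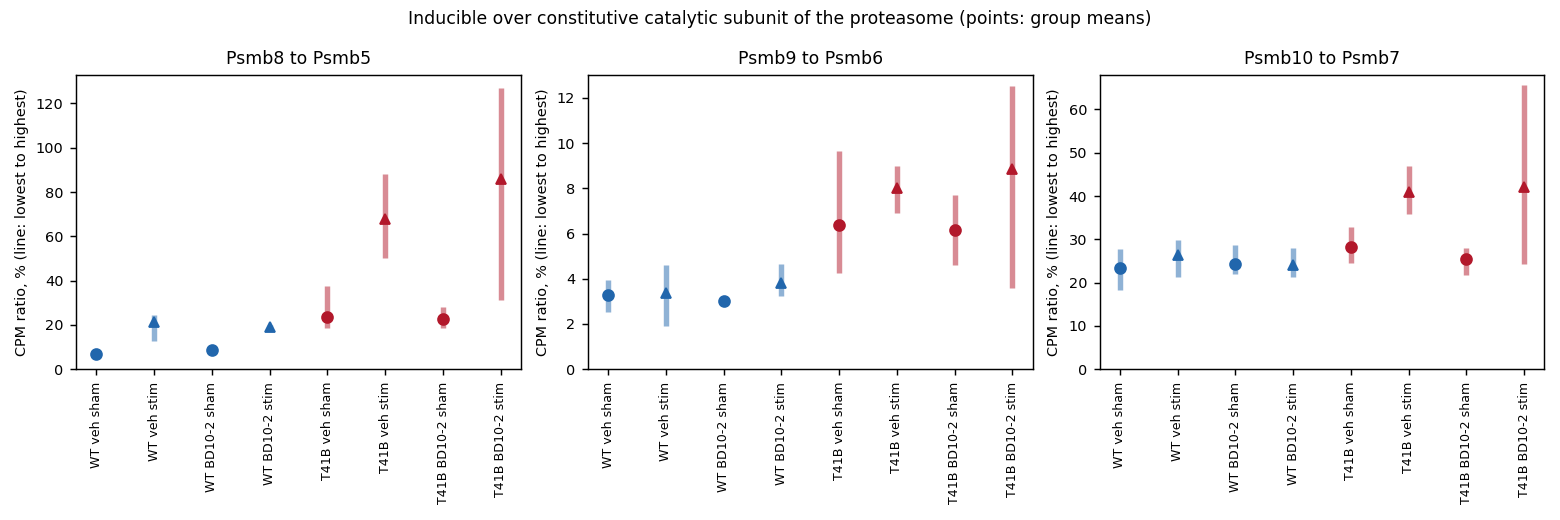
Each inducible catalytic subunit as a percentage of the constitutive subunit it replaces, from CPM + 0.5 of both, in the 8 groups (linear axis from 0). A line runs from the lowest to the highest sample and a point marks the group mean. The mean of Psmb8 over Psmb5 goes from 7.06% in WT vehicle sham to 86.0% in T41B BD10-2 stimulated slices, while Psmb10 over Psmb7 goes from 23.4% to 42.2%.

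Other peptide loading and editing genes were called most often in the stimulation and genotype comparisons that include T41B BD10-2 stimulated slices. The tests of the difference between responses called 0 of them. Of 10 other genes of peptide trimming, editing and folding, stimulation was called higher for 1, 0, 1 and 5 in WT vehicle, WT BD10-2, T41B vehicle and T41B BD10-2 slices and lower for none. Against 8.21%, 6.29%, 11.7% and 13.3% of all genes, the first 3 of these counts were near the background. In T41B BD10-2 slices the 4 largest were Psme2 (log2 1.24 ± 0.2 SE) and Psme1 (0.72 ± 0.16), which form the PA28 activator of the proteasome, Tapbpl (0.92 ± 0.22), a tapasin relative that edits peptides and the trimming peptidase Erap1 (0.65 ± 0.16), with the remaining one smaller in size. Between genotypes 1, 2, 0 and 4 of the 10 were called higher (5.0%, 4.74%, 4.31% and 8.19% of all genes), with Psme1 at log2 0.69 ± 0.18 in vehicle sham and Psme2 at 0.85 ± 0.22 in vehicle stimulated slices.

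Of 11 other class I and class I-like genes, stimulation was called higher for 2, 2, 3 and 6 (all genes: 8.21%, 6.29%, 11.7% and 13.3%), led by H2-Q4, a non-classical class I gene, at log2 1.71 ± 0.31 (SE) in WT vehicle and 2.24 ± 0.27 in T41B BD10-2 slices. H2-K2 was called in all 4 combinations, at log2 1.64 ± 0.25 in WT vehicle slices. Called lower were H2-T24 in T41B vehicle slices (log2 -1.28 ± 0.42) and Fcgrt, the neonatal Fc receptor, in T41B BD10-2 slices. Between genotypes 6, 6, 6 and 9 of the 11 were called higher (all genes: 5.0%, 4.74%, 4.31% and 8.19%) and none lower, with H2-Q6 at log2 2.17 ± 0.38 and H2-Q7 at 2.25 ± 0.38 in vehicle sham slices. Reads shared with H2-K1 and H2-D1 make the split between these genes uncertain.

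The transcription factors and interferon signaling genes that act upstream were fixed as a list of 21. After stimulation 11, 10, 13 and 15 of them were called higher (all genes: 8.21%, 6.29%, 11.7% and 13.3%) and none lower. In WT vehicle slices Irf1, which drives class I genes through the ISRE, went from a mean of 22.3 to 75.6 CPM (log2 1.76 ± 0.17 SE, edgeR adjusted p = 2.05e-08), Irf7 from 1.46 to 13.4 CPM and Irf9 from 10.6 to 25.9 CPM. Ifnb1, the gene of interferon beta, went from 0.0471 to 2.66 CPM (edgeR adjusted p = 1.53e-05), a sham level too low for a fold. Stat2 rose by log2 1.99 ± 0.22 in T41B vehicle slices. Between genotypes 9, 11, 6 and 14 of the list were called higher (all genes: 5.0%, 4.74%, 4.31% and 8.19%) and none lower, with Irf8, a factor of the microglial lineage, at log2 1.82 ± 0.32 in vehicle sham and 2.08 ± 0.31 in vehicle stimulated slices.

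Of 7 genes listed as receptors of class I, 3 passed the filter. Pirb, a class I receptor of myeloid cells and neurons, was called higher in T41B in the vehicle stimulated and BD10-2 stimulated slices. Lilrb4a, an inhibitory receptor of myeloid cells that belongs to the same family but is not an established binder of class I, was called in all 8 comparisons, with a rise of log2 3.06 ± 0.39 (SE) after stimulation in WT vehicle slices and a T41B minus WT difference of 2.33 ± 0.4 in vehicle sham slices.

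Microglial markers moved with genotype and against stimulation. Of 8 markers, 7, 4, 6 and 8 were called higher in T41B in vehicle sham, vehicle stimulated, BD10-2 sham and BD10-2 stimulated slices, where the class I genes were higher too and 5.0%, 4.74%, 4.31% and 8.19% of all genes were called higher. After stimulation 6, 7, 7 and 6 of the 8 were called lower in WT vehicle, WT BD10-2, T41B vehicle and T41B BD10-2 slices and none higher, beside 4.1%, 2.58%, 9.83% and 9.52% of all genes tested called lower, while the class I genes rose. Their summed level in vehicle slices was 232.0 to 300.0 CPM in WT sham, 95.3 to 159.0 CPM in WT stimulated, 499.0 to 909.0 CPM in T41B sham and 248.0 to 362.0 CPM in T41B stimulated slices. The highest T41B vehicle sham sum, 909.0 CPM, is from Mouse1551, which was also the highest of its group for 9 of the 10 class I pathway genes. Under BD10-2 the sums were 254.0 to 312.0, 112.0 to 143.0, 609.0 to 852.0 and 330.0 to 524.0 CPM. Named by size in WT vehicle slices, Tmem119 fell by 2.56, Cx3cr1 by 2.16, P2ry12 by 1.89 and C1qa by 1.01 on the log2 scale. Trem2 was higher in T41B by log2 2.51 ± 0.25 (SE) and C1qa by 2.08 ± 0.22 in vehicle sham slices. The part of these markers in the genotype difference of the class I genes was not tested.

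**Figure D5:**
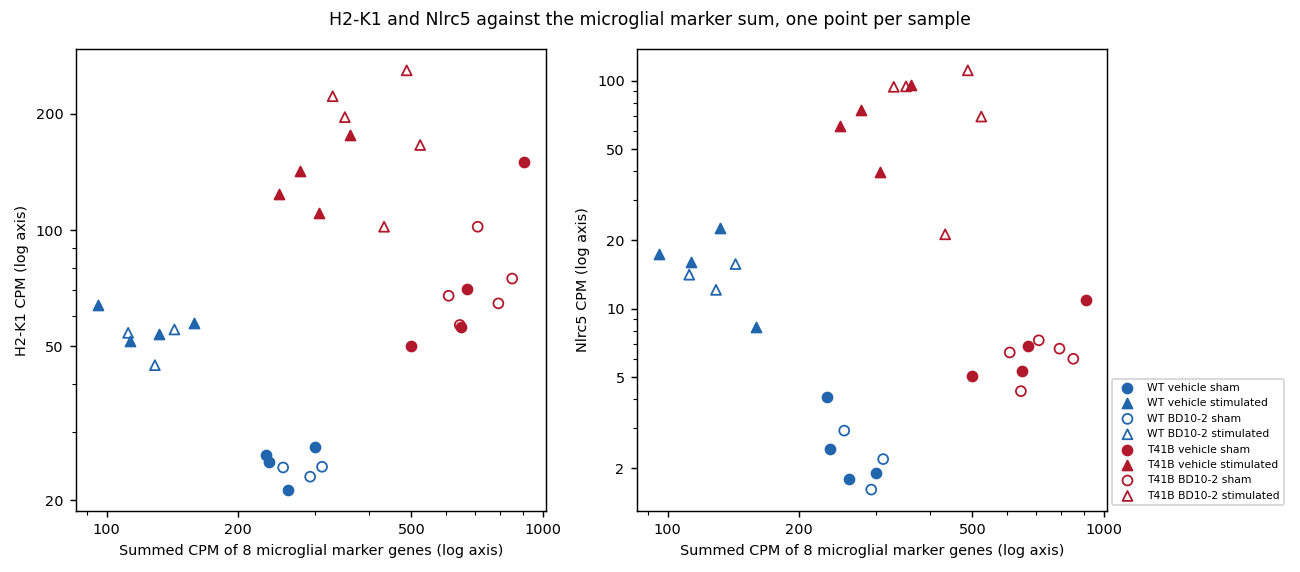
CPM of H2-K1 (left) and Nlrc5 (right) against the summed CPM of 8 microglial marker genes, both on log axes, 1 point per sample, with circles for sham and triangles for stimulated slices, filled for vehicle and open for BD10-2, blue for WT and red for T41B. In WT all stimulated slices lie to the left of and above all sham slices (vehicle marker sums of 95.3 to 159.0 against 232.0 to 300.0 CPM). In T41B they lie above for Nlrc5, while the marker sums (up to 524.0 stimulated, from 499.0 sham) and H2-K1 (from 102.0 stimulated, up to 150.0 sham) overlap, and T41B slices lie to the right of WT slices of the same stimulation.

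Markers of other cell types were read in the same way. The 8 T and NK cell markers summed to at most 3.7 CPM in any sample, with 2 of the 8 testable; Cd3d, Cd8b1, Klrd1 and Nkg7 were at 0 in every WT vehicle sham slice. Their sums were higher in T41B without overlap in vehicle sham (0.812 to 3.7 against 0.289 to 0.648 CPM), BD10-2 sham (0.875 to 2.17 against 0.492 to 0.678 CPM) and BD10-2 stimulated slices (0.878 to 2.29 against 0.372 to 0.486 CPM). None of these markers was called between genotypes, and Trac, a T cell receptor chain, was called lower after stimulation in T41B vehicle slices (0.26 against 0.628 CPM). Their part in the class I results was not tested. None of the 6 neutrophil and monocyte markers passed the filter, their sum was at most 1.38 CPM, and Ly6g was at 0 in every sample of 7 of the 8 groups. Of the 6 endothelial markers 1, 1, 2 and 2 were called higher and 1, 1, 0 and 1 lower after stimulation, and none was called between genotypes. Over all genes 8.21%, 6.29%, 11.7% and 13.3% were called higher and 4.1%, 2.58%, 9.83% and 9.52% lower. Of the 4 astrocyte markers 2, 0, 2 and 1 were called higher after stimulation and 2 in each genotype comparison (Aqp4 and Gfap; 5.0%, 4.74%, 4.31% and 8.19% of all genes), and none was called lower. The 6 choroid plexus markers summed to 13.5 to 1200 CPM in WT vehicle stimulated slices and to 15.5 to 20.3 CPM in the sham slices, and all 6 were called higher there. In T41B vehicle slices they summed to 16.4 to 525.0 CPM after sham and 17.7 to 294.0 CPM after stimulation, with Ttr called higher in T41B in vehicle sham and Folr1 lower in vehicle stimulated slices. Their part in the vehicle results was not tested. In WT BD10-2 slices the sums were between 18.3 and 21.8 CPM. Of the 6 hippocampal neuron markers, Neurod6 was called lower after stimulation in WT BD10-2 (log2 -0.64), T41B vehicle (-0.6) and T41B BD10-2 slices (-0.39) and lower in T41B in BD10-2 sham slices (-0.51), and Gad1 was called lower in T41B in vehicle stimulated (-0.37) and BD10-2 sham slices (-0.4). Of the 4 oligodendrocyte markers, Mog was called lower after stimulation in T41B vehicle slices (-0.65), and none of the 4 blood markers was called in the 8 comparisons. The part of these markers in the class I results was not tested.

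The levels of the members varied together across the 32 samples. Pearson's r between pairs of members on log2 values ran from 0.69 (B2m and Psmb10) to 0.99 (H2-K1 with H2-D1, and Tap1 with Nlrc5), with a median of 0.9 over 45 pairs, and after subtracting group means from 0.39 to 0.96 with a median of 0.79. These are descriptions: the samples share groups, mice and batches. The 5 other genes whose pattern was most like the mean of the members, of 16190 genes at 1 CPM or more, were Ifitm3 (r = 0.97 over 32 samples, 0.9 within groups), Oas1a (0.97 and 0.86), Ehd4 (0.97 and 0.78), Lgals9 (0.96 and 0.83) and Uba7 (0.96 and 0.87). The members and the listed H2 genes were left out of this choice. Ifitm3 and Oas1a are interferon-induced antiviral genes, and Uba7 is the activating enzyme for the ubiquitin-like ISG15. Ifitm3 differed after stimulation by log2 2.07, 1.87, 1.79 and 2.41 in WT vehicle, WT BD10-2, T41B vehicle and T41B BD10-2 slices. All 5 were picked for likeness in these same samples, so their fold changes are no separate evidence.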

How the data were processed

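RNA was measured by ribosomal-depleted, stranded RNA sequencing of 36 hippocampal slice libraries prepared from 200 ng of total RNA, per the labels' protocols. The authors deposited expected counts per Ensembl gene (5.69% of values with decimals). The submitters' processing notes name cutadapt 1.8.1, STAR 2.7.6a, RSEM 1.3.1, featureCounts 1.6, SAMtools 1.11 and the builds GRCm38.p6 and mm10; annotation release and strand setting are not given in the sources used here. Gene symbols were matched by Ensembl ID, and 55154 of 55421 IDs had one.

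The expected counts were summed over libraries of the same mouse and stimulation (4 pairs, 32 samples) and rounded. edgeR 4.0.16 (R 4.3.3) fitted 1 mean for each of the 8 groups with TMM (factors 0.91 to 1.063), filterByExpr (minimum count 10) and the quasi-likelihood test, and p-values were adjusted over 19478 genes. DESeq2 1.42.0 was an alternative. The fit was tested on simulated data. Ratios of subunits used CPM + 0.5 and an exact permutation test over samples (scipy 1.17.1). Positions and exon lengths came from GENCODE gene models on GRCm38, upstream sequences from RefSeq (GRCm38.p6). Slices of the same mouse deviated together (mean correlation 0.2 over 14 pairs, lowest 0.02, against -0.06 over 52 pairs of different mice), and the pairing comes from the mouse given in the labels. Libraries of equal labels differed by more than counting noise (chi-square per degree of freedom 8.1 to 31.6). Libraries of different mice in the same group gave 6.9 to 77, so the ranges overlap. The alternatives were other size factors, no low-count filter, DESeq2, only the groups compared, a batch term, the mouse block, the first library of each pair, leaving out the doubted library, and leaving out each mouse.

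The members and lists were chosen with earlier results of these data known. All 10 members are described. Up to 4 genes of a list are named, those with the largest change among its called genes. The 5 genes most like the members by Pearson's r, outside the members and the listed H2 genes, are named too. Thy1 served as the check of genotype labels.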

Additional observations from a re-analysis of the deposited data

Results flagged for a closer look

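In T41B vehicle sham slices, 2 genes had 1 sample far from the others, and both were from Mouse1551. H2-D1 was at 274.0 CPM there, with the other 3 slices at 84.7 to 114.0 CPM. Tap2 was at 16.1 CPM there, with the others at 10.7 to 11.4 CPM. The gap to the nearest slice, over the range of the group, was above Dixon's 95% critical value. These were 2 of 60 such tests, and chance alone marks about 5% of them.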

How the results depend on the processing

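Size factors by the median of ratios, DESeq2, no low-count filter and leaving out the doubted library of Mouse1592 left each count of called members within 1.5 times its value. Over all alternatives 198 of 218 counts did so. Many of the 218 are treatment and response counts, which were 0 in the main fit and almost always 0 in the alternatives. The 198 therefore say less about the stimulation and genotype counts. With only the groups compared, 8 members were called for stimulation in WT BD10-2 slices. With the batch as a term the genotype counts were 4 in vehicle sham and 5 in BD10-2 sham slices, and with the first library of each pair 5 and 5. Leaving out 1 mouse gave 2 to 3 for stimulation in WT BD10-2, 4 to 8 for genotype in vehicle sham and 4 to 8 in BD10-2 sham slices, 0 to 1 for the genotype difference in response under BD10-2 (Tapbp) and 0 to 14 of 24 ratios past the threshold. A fit with a replicate block for each mouse gave counts of 8, 4, 8 and 9 for stimulation. Among the stimulation, genotype and ratio values the sign turned for these, none of them called: Psmb10 for stimulation in WT BD10-2 slices (-0.08 with the batch term, -0.01 with the block, -0.23 to 0.27 when 1 mouse was left out, lowest without Mouse1586), Psmb10 between genotypes in BD10-2 sham slices (-0.02 with the batch term), the ratio Psmb9 to Psmb6 in WT vehicle (-0.13 to 0.12 on leaving out 1 mouse, with 0.07 without Mouse1513) and Psmb10 to Psmb7 in WT vehicle (-0.01 to 0.28) and WT BD10-2 (-0.12 to 0.11, with 0.02 without Mouse1565). The uncalled treatment and response differences changed sign more often: without Mouse1551, 8 of 10 members differed upward between BD10-2 and vehicle in T41B sham slices, against 1 with it, and with the block 8 of 10 differences in response were positive for T41B minus WT under BD10-2 and for BD10-2 minus vehicle in T41B, against 10 and 10. The cause of these changes was not tested, except that fewer mice leave fewer degrees of freedom.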
